A study of Mus musculus with 8 samples.

Results

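The genes described here are 40 genes of mitosis, taken by symbol from a list of mitotic cyclins and kinases, spindle, kinetochore, chromosome and cytokinesis genes, out of 24411 genes in the deposited tables. All 40 were found, and all 40 were among the 13177 genes whose counts were high enough to test. They fall into 9 roles: 8 cyclins, mitotic kinases and their activators, 4 genes of mitotic exit, 4 of the spindle checkpoint, 4 of the chromosomal passenger complex, 5 kinesins, 3 centromere genes, 5 spindle genes, 3 cytokinesis genes and 4 genes of chromosome structure and proliferation. The 8 RNA-seq libraries came from primary bone marrow of C57BL/6 mice of wild-type genotype, and the series sorted common myeloid progenitors into 4 subpopulations first seen in single-cell clustering, with 2 libraries per population. All 4 were sorted as KIT+ and CD16/32-, so none of the groups is an unsorted or a mature control. The CD34bright population was CD34bright, CD41+ and CD9+. The CD48bright and CD48dim populations were both CD34dim, CD41+ and CD9+, and differed in the gate on CD48, a surface protein of the SLAM family. The fourth population, called CD41/CD9-negative here, was CD34dim and negative for both CD41 and CD9. The labels give no age or sex, do not say how many mice went into a library or whether duplicates came from different mice. The p-values therefore rest on the spread between duplicates, which may be of technical origin.

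Mitosis genes are transcribed mostly late in the cell cycle, and many of their products are destroyed as the cell leaves mitosis. The kinase Cdk1 with cyclins A and B drives entry, the spindle built by kinesins and microtubule-binding proteins pulls sister chromatids apart through kinetochores, and the anaphase-promoting complex, a ubiquitin ligase, ends mitosis by marking cyclin B and securin for destruction. Many promoters of this class carry the cell cycle genes homology region, whose core letters are TTTGAA and which is bound by the MuvB complex, together with CCAAT boxes bound by NF-Y. In bone marrow, long-term stem cells are known to divide rarely, while most KIT+ progenitors divide often. In bulk RNA from a sorted population, fewer cells in mitosis and less of a transcript in each cell cannot be told apart.

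Promoter sequence is shown for 7 of the genes because it is a feature shared across roles that was not used to choose the set. Stretches of 100 bases upstream of the annotated start, taken from RefSeq promoters of GRCm38.p6 and ending before the first base that GENCODE lists as an exon, are printed 5′ to 3′ along the gene's strand. Capitals mark TTTGAA and CCAAT or their reverse complements TTCAAA and ATTGG. The first 5 are from genes with higher levels in CD34bright than in CD48dim by the test below, Kif11 is a spindle motor, and Ncaph and Mad2l1 have neither motif in their whole promoter entry.
Ccnb1, chr13:100786571-100786670, minus strand: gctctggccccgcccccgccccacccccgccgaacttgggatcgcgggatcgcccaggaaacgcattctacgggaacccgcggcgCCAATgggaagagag
Cdk1, chr10:69352939-69353038, minus strand: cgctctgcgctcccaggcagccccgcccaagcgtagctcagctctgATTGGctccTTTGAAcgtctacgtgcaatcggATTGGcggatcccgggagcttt
Ccnb2, chr9:70421555-70421654, minus strand: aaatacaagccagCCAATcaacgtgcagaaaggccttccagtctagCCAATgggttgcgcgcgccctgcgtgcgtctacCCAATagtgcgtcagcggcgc
Ube2c, chr2:164769798-164769897, plus strand: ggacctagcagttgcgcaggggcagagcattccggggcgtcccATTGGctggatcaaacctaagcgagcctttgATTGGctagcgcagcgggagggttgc
Ncaph, chr2:127133955-127134054, minus strand: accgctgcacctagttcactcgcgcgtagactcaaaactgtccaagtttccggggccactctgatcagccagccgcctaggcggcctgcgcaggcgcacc
Kif11, chr19:37376282-37376381, plus strand: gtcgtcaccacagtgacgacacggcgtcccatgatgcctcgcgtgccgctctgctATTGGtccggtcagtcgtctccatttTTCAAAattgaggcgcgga
Mad2l1, chr6:66535121-66535220, plus strand: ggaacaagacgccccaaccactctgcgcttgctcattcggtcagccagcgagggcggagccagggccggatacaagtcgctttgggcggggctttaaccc
In Cdk1 the printed TTTGAA begins at position -71 from the start, and another begins at -15, outside the printed stretch. In Ccnb1 a further CCAAT begins at -67, and in Ube2c the reverse form of TTTGAA begins at -29. Ccnb2 has TTTGAA beginning at -167 and at 5, both outside the printed stretch. RefSeq promoter entries of 300 bases (250 before and 50 after the start) matched 33 of the 40 genes, with 36 promoters, and held no entry for Aurkb, Incenp, Ccna2, Cdc25c, Dlgap5, Tpx2 and Kif20a. TTTGAA was found on either strand in 69.4% of the 36 promoters, against 17.9% of all 32851 promoters and 12.3% of those of the genes tested. CCAAT was found on either strand in 80.6%, against 37.4% of all promoters. Both a CCAAT and either TTTGAA or its variant TTCGAA were present in 66.7% of the 36, against 7.5% of all promoters. Neither was found in the promoters of Nusap1, Ncaph, Mad2l1, Pttg1 and Birc5. The 24 genes with TTTGAA or TTCGAA had a median log2 fold change of 1.53 between CD34bright and CD48dim, and the 9 genes without it had 1.68. Between CD34bright and CD48bright the same medians were 0.61 and 0.47, and the difference between the 2 sets of genes was not tested. A match is a description of the letters and says nothing of binding in these cells.

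The libraries held between 7237587 and 20632005 counts, the smallest being replicate 2 of CD48dim, and single mitosis genes had between 20 and 38402 counts in a library. CPM here means counts relative to library totals that were scaled by TMM, a method that equalises the bulk of the genes between libraries. The CD48dim libraries were unlike the other 6 and unlike one another. Summed over 10 neutrophil genes (S100a8, S100a9, Ngp, Ltf, Camp, Lcn2, Retnlg, Mmp8, Mmp9 and Cxcr2) the level was 4175 CPM in CD48dim replicate 1 and 625 in replicate 2, 702 and 49.9 in CD41/CD9-negative and 115 to 166 in the other 4 libraries, with none of the 10 at 0 in any library. Within this list Cxcr2 went the other way. It was at 55.8 and 86.9 CPM in CD34bright and 26.8 and 43.9 in CD48bright, against 11.1 and 11.3 in CD48dim. For 8 erythroid genes the sum was 290.0 CPM in CD48dim replicate 1 and 16.2 to 68.1 elsewhere. Hba-a2 alone gave 143.7 CPM of the 290.0. Hba-a1 and Klf1 were instead highest in CD48bright, at 10.8 CPM in replicate 2 and 47.7 CPM in replicate 1. A list of 8 stem cell genes summed to 887 and 1409.6 CPM in CD48dim against 116 to 305 in the other 6 libraries. Of these sums Hlf gave 602 and 1031.5 CPM, and Hoxb5 (7.71 and 0.55 CPM in CD48dim) overlapped the other populations. A list of 6 lymphoid genes summed to 1823 and 1219 CPM in CD41/CD9-negative against 13.4 to 123 elsewhere. Dntt gave 1503.5 and 907 CPM of it. Cd3e (1.81 and 3.31 CPM there) was highest in CD48bright replicate 1, at 3.59 CPM. The long non-coding RNA Malat1 stood at 38947 CPM in CD48dim replicate 2 and between 5004 and 14867 in the other 7. The sort genes followed the gates at the RNA level: Itga2b (CD41) was at 2.83 and 2.18 CPM in CD41/CD9-negative against 64.3 to 155 elsewhere, Cd48 at 35.8 and 16.9 CPM in CD48dim against 157 to 246 elsewhere, and Cd34 at 509.7 and 461 CPM in CD34bright against 166 to 397 elsewhere. The part of these differences in the levels of mitosis genes was not tested.

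Mitosis gene levels were highest in CD34bright, lowest in CD48dim, and close to each other in CD48bright and CD41/CD9-negative. The mean over 2 libraries was highest in CD34bright for 37 of 40 genes, against 23.2% of all genes tested, and lowest in CD48dim for 35 of 40, against 33.1%. For 26 of the 40 both CD34bright libraries lay above all 6 other libraries, against 4.86% of all genes tested, and for 26 both CD48dim libraries lay below all 6 others, against 11.6%. On the authors' TPM values (scaled for transcript length) 31 genes were highest in CD34bright and 35 lowest in CD48dim. The log2 CPM of a gene minus its mean over the 8 libraries had a median over the 40 genes of 0.71 and 0.73 in the CD34bright libraries, 0.05 and 0.07 in CD41/CD9-negative, 0.10 and 0.15 in CD48bright, and -0.88 and -0.87 in CD48dim. The replicates of each population were thus close to each other in the median, including the 2 CD48dim libraries that differed in depth and in neutrophil genes. In edgeR's quasi-likelihood test of any difference among the 4 populations, 5 of the 40 passed a Benjamini-Hochberg adjusted p of 0.05, against 2.44% of all genes tested: Ccnb1 (adjusted p = 0.0199), Cdk1 (0.046), Ccna2 (0.0465), Ncaph (0.048) and Aurkb (0.0494). The count moved together with that of all genes tested. It was 26 without CD48dim replicate 1, where 24.7% of all genes tested were called, 22 without CD48dim replicate 2 (9.11%), 24 with DESeq2 (13%) and 20 when replicate numbers entered the fit as a block (5.8%). Leaving out 1 CD48bright library lost most of the 5 calls. Leaving out 1 CD34bright or CD41/CD9-negative library lost all of them, while some other genes were still called.

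**Figure D1:**
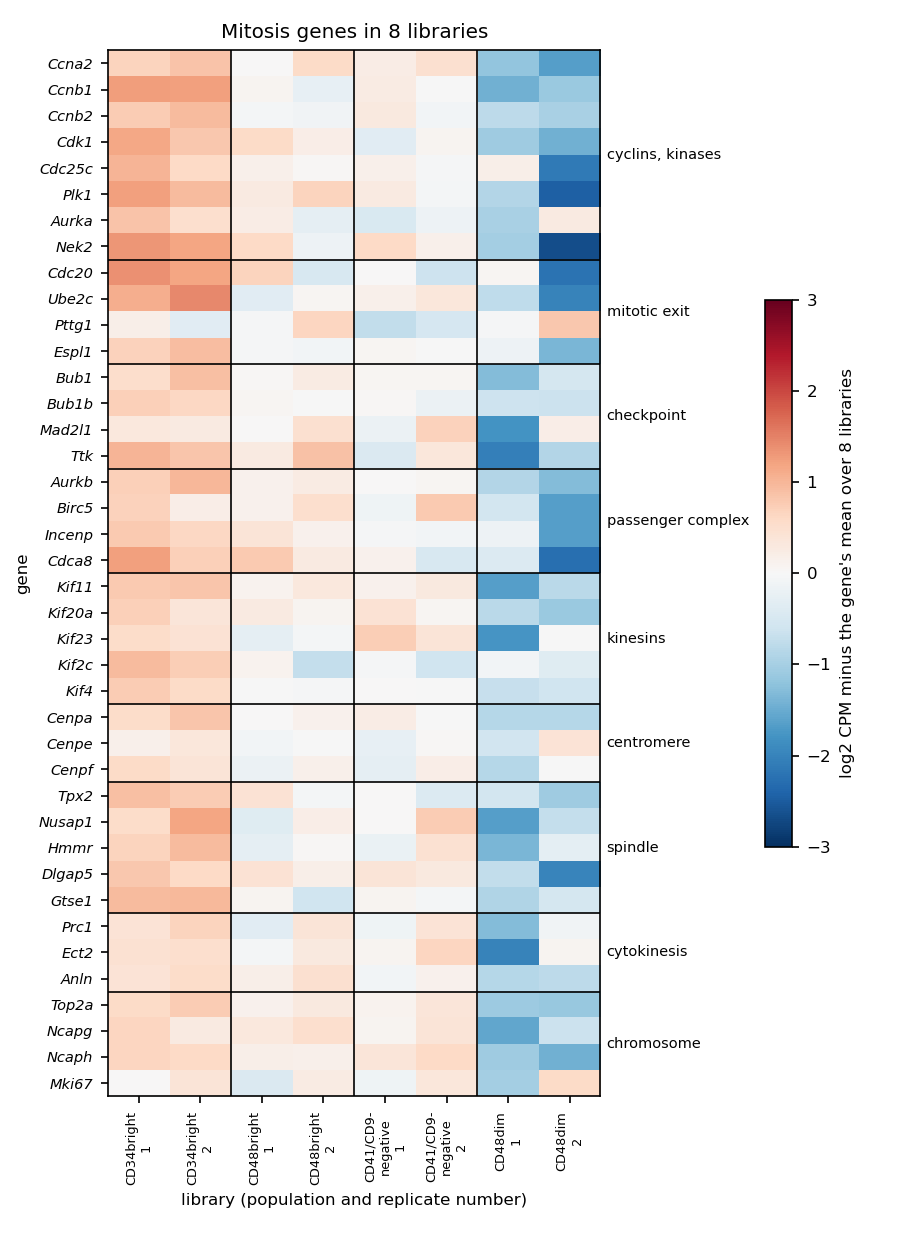
Log2 CPM of each of the 40 mitosis genes (rows, grouped by role) minus the gene's mean over the 8 libraries (columns, 2 for each population), with red above and blue below the mean. Both CD34bright columns are mostly red and both CD48dim columns mostly blue, while single genes such as Mki67, Mad2l1 and Pttg1 differ in colour between the 2 CD48dim columns.

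The largest difference was between CD34bright and CD48dim, where 7 of the 40 genes were higher in CD34bright by the test, against 0.364% of all genes tested, and none was lower, against 0.212%. The 7 were the cyclins Ccnb1, Ccna2 and Ccnb2, their kinase Cdk1, the ubiquitin-conjugating enzyme Ube2c, the passenger complex kinase Aurkb and the condensin subunit Ncaph. Both CD34bright libraries lay above both CD48dim libraries for 37 of 40 genes, against 23.1% of all genes tested, and the 3 that overlapped were Pttg1, Cenpe and Mki67. The median log2 fold change of the 40 was 1.56, against -0.07 over all genes tested, and ranged from -0.51 for Pttg1 to 2.87 for Nek2. By role, the medians were 2.19 for the cyclins and kinases, 1.71 for mitotic exit, 1.70 for the passenger complex, 1.68 for the spindle, 1.64 for chromosome genes, 1.45 for the checkpoint, 1.31 for the kinesins, 1.14 for cytokinesis and 0.86 for the centromere, and the difference between roles was not tested. This order depended on the CD48dim library. In CD48dim replicates 1 and 2 the mean log2 deviation was -0.49 and -1.71 for the passenger complex and -0.23 and -1.20 for mitotic exit. It was -1.44 and -0.46 for the checkpoint and -1.39 and -0.28 for cytokinesis. SEs of single genes lay between 0.29 and 0.72. The count of 7 became 30 without CD48dim replicate 1, where 28.4% of all genes tested were called in either direction, and 29 without CD48dim replicate 2 (4.84%). It was 29 with DESeq2 (9.77% of all genes tested), 28 with no filter on low counts (5.51%) and 26 with a replicate block (5.18%). Limma-voom called 6 (0.342%), of which 4 were among the 7. Most of the 7 calls were lost when 1 CD48bright library was left out, and all when 1 CD34bright or CD41/CD9-negative library was. In those fits few or no other genes were called. With only the 4 libraries of this pair fitted, no gene at all was called.

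Against the same 2 CD48dim libraries, 3 genes were higher in CD41/CD9-negative, namely Ncaph, Ccna2 and Ccnb1, against 1.98% of all genes tested, and none was lower, against 2.04%. The libraries of these 2 populations did not overlap for 29 genes with the higher level in CD41/CD9-negative, against 22.5% of all genes tested, and for 1 gene, Pttg1, with the lower level there, against 21%. The median log2 fold change was 0.94 (-0.06 over all genes tested), and 36 of 40 values were above 0. The count of 3 was 20 without CD48dim replicate 1 (23.9% of all genes tested in either direction), 14 without CD48dim replicate 2 (10.4%), 17 with DESeq2 (11.7%) and 10 with a replicate block (7.32%). None of the 3 calls held when 1 CD41/CD9-negative or CD34bright library was left out, while some other genes were still called. Fitting only the libraries of this pair gave 0, against 1.02% of all genes tested in either direction.

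Between CD48bright and CD48dim, which shared all gates but CD48, edgeR called none of the 40 (0.273% of all genes tested were called higher and 0.114% lower in CD48bright). The smallest adjusted p was 0.0912, for Ccna2. At an unadjusted p below 0.05, 22 genes had the higher level in CD48bright, against 6.85% of all genes tested. DESeq2 called 14 of the 40, against 5.76% of all genes tested in either direction, and edgeR with a replicate block 5 (1.35%). Limma-voom called 0 with or without quality weights (0.0152% and 0.0379%). The median log2 fold change was 0.99 (-0.03 over all genes tested), 36 of 40 values were above 0, and the libraries did not overlap for 27 genes with the higher level in CD48bright, against 20.2% of all genes tested. EdgeR's count was 21 when CD48dim replicate 1 was left out, where 23.3% of all genes tested were called, and 8 when replicate 2 was (2.92%).

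CD34bright was also above CD48bright in most genes, by less. Here the CD48dim libraries entered only through the filter, the scaling and the estimate of spread, which all 8 libraries share. Both CD34bright libraries lay above both CD48bright libraries for 32 of 40 genes, against 15.3% of all genes tested, and 39 of 40 log2 fold changes were above 0, with a median of 0.59 (-0.01 over all genes tested). EdgeR called none of the 40, and 0% of all genes tested in either direction. At an unadjusted p below 0.05 it had 7 higher in CD34bright, against 0.372% of all genes tested. DESeq2 and limma-voom called 0 (0.281% and 0% of all genes tested in either direction). The smallest p before adjustment was that of Ccnb1 (log2 fold change 1.3, SE 0.32, adjusted p = 1 by edgeR's quasi-likelihood test), whose 4 libraries are given below. On the authors' TPM values 36 of 40 differences were above 0, and those of Pttg1, Mad2l1, Anln and Ncapg were below it.

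CD41/CD9-negative lay below CD34bright in 38 of 40 genes, with a median log2 fold change of -0.66 (-0.00 over all genes tested). The libraries did not overlap for 31 genes with the lower level in CD41/CD9-negative, against 25.6% of all genes tested. EdgeR called none of the 40 (0.577% of all genes tested were higher and 0.266% lower), had 11 lower at an unadjusted p below 0.05 against 4.01% of all genes tested, and gave a smallest adjusted p of 0.191, for Ccnb1. DESeq2 called 1 (against 4.74% of all genes tested in either direction), limma-voom 0 (1.11%), and voom with quality weights 7 (7.03%). Leaving out CD48dim replicate 1 or 2 gave 4 and 5 calls in edgeR (5.44% and 5.46%), leaving out any other library 0, and a fit of these 4 libraries alone gave 7 (8.7%).

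No difference between CD41/CD9-negative and CD48bright was called. The median log2 fold change was 0.02 (-0.02 over all genes tested), 21 of 40 values were above 0, and all lay between -0.96 and 0.73. None of the 40 was called (0.0835% of all genes tested were called higher and 0.129% lower in CD41/CD9-negative), and 0 had an unadjusted p below 0.05 (3.73% of all genes tested were higher and 3.38% lower at that level). DESeq2 and limma-voom called 0 (2.78% and 0.288% of all genes tested in either direction). The libraries did not overlap for 4 genes with the higher and 7 with the lower level in CD41/CD9-negative, against 19.7% and 20.4% of all genes tested. The median SE of a log2 fold change was 0.42, and the missing calls do not show that these 2 populations had equal levels. The 3 comparisons with CD48dim share its 2 libraries, and those with CD34bright share its 2.

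**Figure D2:**
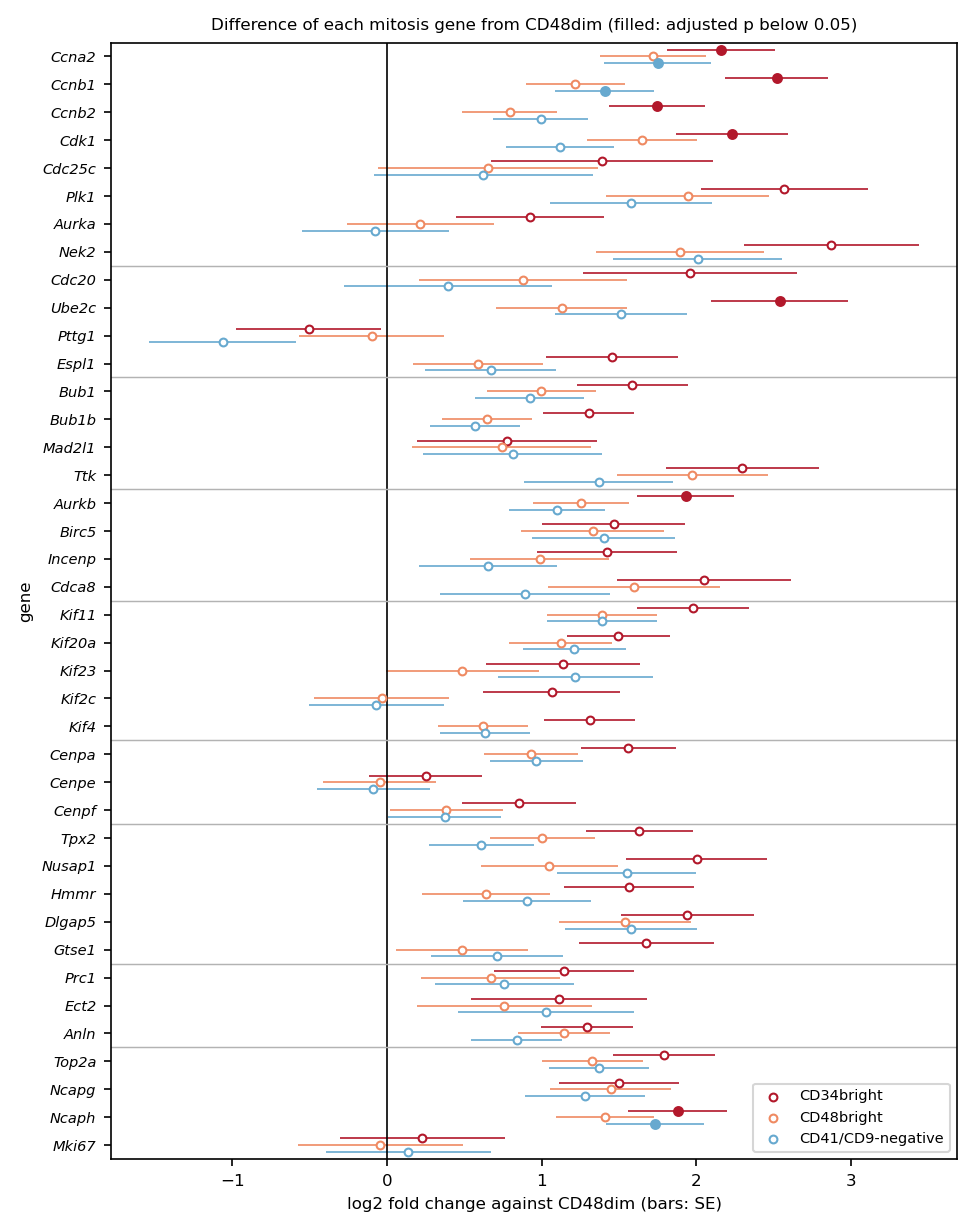
Log2 fold change of each of the 40 mitosis genes against CD48dim, for CD48bright, CD41/CD9-negative and CD34bright, with bars of 1 SE, grouped by role and filled where edgeR's adjusted p was below 0.05. The 3 populations share the CD48dim libraries as their reference, the CD34bright points lie farthest to the right for most genes, and 7 of them are filled, against 3 for CD41/CD9-negative and 0 for CD48bright.

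Among the cyclins and mitotic kinases, cyclin B1 (Ccnb1, chr13:100778739-100786486 of GRCm38, minus strand), the activating partner of Cdk1 at mitotic entry, had the smallest adjusted p. Ccnb1 stood at 181 and 179 CPM in the CD34bright libraries, 91.0 and 75.8 in CD41/CD9-negative, 81.5 and 64.8 in CD48bright and 27.9 and 35.0 in CD48dim. Each pair of replicates was close, and the CD48dim pair lay lowest and the CD34bright pair highest with no overlap. The log2 fold change was 2.52 (SE 0.33, adjusted p = 0.0289). In CD41/CD9-negative it was 1.41 (SE 0.32, adjusted p = 0.0434). Cyclin A2 (Ccna2, chr3:36564865-36573038, minus strand) acts from S phase into early mitosis. Ccna2 was at 345 and 389 CPM in the CD34bright libraries, 250.2 and 303 in CD41/CD9-negative, 219 and 323 in CD48bright and 95.4 and 69.0 in CD48dim. The CD48dim pair lay far below the 6 others, of which those of CD48bright and CD41/CD9-negative overlapped. CD34bright exceeded CD48dim by a log2 fold change of 2.16 (SE 0.35, adjusted p = 0.0374). CD41/CD9-negative exceeded it by 1.75 (SE 0.34, adjusted p = 0.0264). About 510 exon bases of Ccna2 are shared with Exosc9 on the other strand, whose 3287 counts over all libraries compare with 28642 for Ccna2.

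The kinase Cdk1 (chr10:69335146-69352912, minus strand) is the catalytic partner of both cyclins. Cdk1 measured 131 and 102 CPM in the CD34bright libraries, 46.3 and 61.8 in CD41/CD9-negative, 88.1 and 67.8 in CD48bright and 28.1 and 21.6 in CD48dim. CD34bright was highest and CD48dim lowest in both replicates, with CD48bright above CD41/CD9-negative. Between CD34bright and CD48dim the log2 fold change was 2.23 (SE 0.36, adjusted p = 0.038). Cyclin B2 (Ccnb2, chr9:70407689-70421554, minus strand) is the second B-type cyclin of dividing cells. Ccnb2 had 152 and 174 CPM in the CD34bright libraries, 109 and 84.3 in CD41/CD9-negative, 85.8 and 82.6 in CD48bright and 51.5 and 45.6 in CD48dim. Its log2 fold change between the first and the last was 1.75 (SE 0.31, adjusted p = 0.0498). The other 4 genes of this role are the phosphatase Cdc25c, which activates Cdk1, and the kinases Plk1, Aurka and Nek2, which act at centrosomes and spindle poles. None of the 4 passed edgeR's test. Their log2 fold changes between CD34bright and CD48dim were 0.92 for Aurka, 1.39 for Cdc25c, 2.57 for Plk1 and 2.87 for Nek2. The 2 largest carried SEs of 0.54 and 0.56, and the CD48dim libraries were far apart, with Plk1 at 15.2 and 5.08 CPM and Nek2 at 17.8 and 5.63 CPM there.

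**Figure D3:**
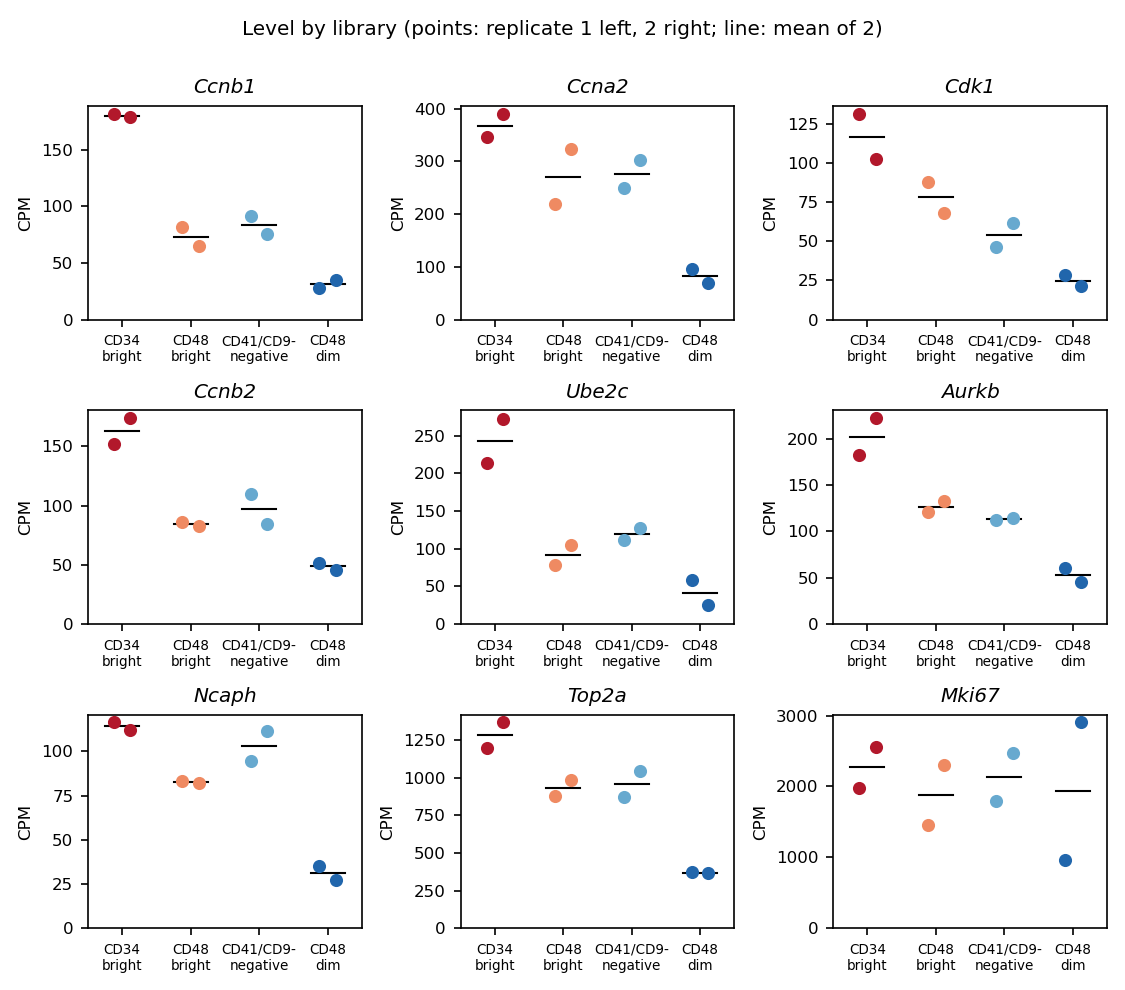
CPM in each library (points, replicate 1 on the left) and the mean of 2 (line) for the 7 genes that were higher in CD34bright than in CD48dim, and for Top2a and Mki67, with an axis from 0 in each panel. Both CD48dim points lie lowest in every panel except that of Mki67, where they are the lowest and the highest of the 8.

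Of the genes of mitotic exit, Ube2c (chr2:164769929-164772902, plus strand), the ubiquitin-conjugating enzyme of the anaphase-promoting complex, was higher in CD34bright. Ube2c was at 214 and 271 CPM in the CD34bright libraries, 112 and 127 in CD41/CD9-negative, 78.3 and 105 in CD48bright and 58.7 and 24.6 in CD48dim. The CD34bright pair was well above all others, and the CD48dim pair differed by more than 2-fold within itself. The log2 fold change was 2.54 (SE 0.44, adjusted p = 0.0452). Separase (Espl1), the protease that cuts cohesin at anaphase, showed the same order without a call. Espl1 measured 82.1 and 95.7 CPM in the CD34bright libraries, 53.0 and 50.1 in CD41/CD9-negative, 49.8 and 47.7 in CD48bright and 45.2 and 19.4 in CD48dim. Its log2 fold change between CD34bright and CD48dim was 1.46 (SE 0.43, adjusted p = 0.132). Cdc20, the activator of the anaphase-promoting complex, had 85.6 and 75.3 CPM in CD34bright and 34.1 and 7.0 in CD48dim. It shares 53 exon bases with Elovl1 on the other strand, which had 6275 counts over all libraries against 5183, and reads in those bases cannot be assigned. Securin (Pttg1), which holds separase inactive until anaphase, did not follow the others and is given below.

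The spindle checkpoint delays anaphase until every kinetochore is attached. None of its 4 genes passed edgeR's test in any pair. For CD34bright against CD48dim DESeq2 called 3, against 9.77% of all genes tested in either direction. The checkpoint kinase Ttk had the steepest difference of the 4. Ttk stood at 94.7 and 83.8 CPM in the CD34bright libraries, 34.4 and 59.5 in CD41/CD9-negative, 56.7 and 86.0 in CD48bright and 11.1 and 25.4 in CD48dim. The CD48dim libraries were lowest, and CD34bright and CD48bright overlapped. The log2 fold change from CD48dim to CD34bright was 2.30 (SE 0.49, adjusted p = 0.0721). BubR1 (Bub1b), a component of the mitotic checkpoint complex, had close replicates. Bub1b was at 163 and 153 CPM in the CD34bright libraries, 102 and 88.2 in CD41/CD9-negative, 103 and 98.3 in CD48bright and 64.8 and 63.2 in CD48dim. CD34bright against CD48dim gave a log2 fold change of 1.3 (SE 0.29, adjusted p = 0.0773). The kinase Bub1 had a log2 fold change of 1.59 (SE 0.36) and the checkpoint protein Mad2l1 one of 0.78 (SE 0.58) in the same comparison, neither called by edgeR.

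Within the chromosomal passenger complex, which corrects kinetochore attachments and later guides cytokinesis, the kinase Aurkb (chr11:69045624-69051664, plus strand) was called. Aurkb measured 183 and 222 CPM in the CD34bright libraries, 112 and 115 in CD41/CD9-negative, 121 and 133 in CD48bright and 60.8 and 45.3 in CD48dim. The order of the populations held in every library, with CD48bright just above CD41/CD9-negative. CD34bright exceeded CD48dim by a log2 fold change of 1.93 (SE 0.32, adjusted p = 0.0388). Borealin (Cdca8), a subunit that targets the complex to the centromere, had the widest CD48dim pair of the complex. Cdca8 was at 198 and 138 CPM in the CD34bright libraries, 91.3 and 59.6 in CD41/CD9-negative, 144 and 101 in CD48bright and 63.4 and 17.5 in CD48dim. CD34bright and CD48dim were apart by a log2 fold change of 2.05 (SE 0.57, adjusted p = 0.116). Survivin (Birc5) and the scaffold Incenp had log2 fold changes of 1.47 and 1.42 between CD34bright and CD48dim, and neither was called by edgeR. DESeq2 called all 4 genes of the complex in this comparison, against 9.77% of all genes tested in either direction.

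The 5 kinesins, motors that build and shorten the spindle or act at its midzone, had log2 fold changes between CD34bright and CD48dim from 1.07 for Kif2c to 1.98 for Kif11. EdgeR called none of the 5 and DESeq2 called 3, against 9.77% of all genes tested in either direction. Kif11 is the motor that pushes spindle poles apart. Kif11 had 555 and 568 CPM in the CD34bright libraries, 353 and 394 in CD41/CD9-negative, 348 and 401 in CD48bright and 102 and 183 in CD48dim. The CD48dim libraries were the lowest of the 8. CD34bright against CD48dim gave it a log2 fold change of 1.98 (SE 0.36, adjusted p = 0.053). Kif20a, a motor of the central spindle, shares 1271 exon bases with Cdc23 on the other strand, which had 12008 counts over all libraries against 8836, so its level is uncertain. Kif20a measured 115 and 90.1 CPM in the CD34bright libraries, 95.1 and 73.3 in CD41/CD9-negative, 84.7 and 73.8 in CD48bright and 40.2 and 32.6 in CD48dim. Kif4, a chromosome-bound motor, had 169 and 147 CPM in CD34bright and 61.9 and 65.7 in CD48dim.

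Of the centromere genes, Cenpa, the histone variant that marks centromeres, kept the order of the set. Cenpa was at 131 and 160.3 CPM in the CD34bright libraries, 105 and 88.4 in CD41/CD9-negative, 90.3 and 98.1 in CD48bright and 49.6 and 49.2 in CD48dim. The replicates were close in all 4 populations, and CD48bright and CD41/CD9-negative overlapped. The log2 fold change between CD34bright and CD48dim was 1.56 (SE 0.31, adjusted p = 0.0575). Cenpf, a large kinetochore protein of dividing cells, had the CD48dim pair farther apart. Cenpf stood at 273 and 239 CPM in the CD34bright libraries, 154 and 213 in CD41/CD9-negative, 163 and 206 in CD48bright and 101 and 182 in CD48dim. Its log2 fold change was 0.86 (SE 0.37, adjusted p = 0.25). EdgeR called none of the 3 centromere genes in any pair. For CD34bright against CD48dim DESeq2 called 1, against 9.77% of all genes tested in either direction.

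None of the 5 spindle genes was called by edgeR in any pair. For CD34bright against CD48dim DESeq2 called all 5, against 9.77% of all genes tested in either direction. Tpx2, which activates Aurka and nucleates microtubules near chromosomes, had its 2 lowest levels in CD48dim. Tpx2 was at 230.1 and 210.4 CPM in the CD34bright libraries, 124 and 93.1 in CD41/CD9-negative, 167 and 118 in CD48bright and 83.5 and 58.4 in CD48dim. Against CD48dim, CD34bright had a log2 fold change of 1.63 (SE 0.35, adjusted p = 0.0718). Dlgap5, a kinesin-associated spindle protein, had CD48bright and CD41/CD9-negative at nearly the same level. Dlgap5 measured 97.8 and 84.2 CPM in the CD34bright libraries, 73.1 and 68.3 in CD41/CD9-negative, 75.0 and 62.4 in CD48bright and 33.1 and 14 in CD48dim. CD34bright against CD48dim gave 1.94 (SE 0.43, adjusted p = 0.077). The spindle proteins Nusap1, Hmmr and Gtse1 had log2 fold changes of 2.0, 1.56 and 1.68 in that comparison.

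Of the 3 cytokinesis genes, edgeR called none and DESeq2 1 in CD34bright against CD48dim, against 9.77% of all genes tested in either direction by DESeq2. Anillin (Anln), a scaffold of the contractile ring, had CD34bright and CD48bright side by side. Anln was at 185 and 202 CPM in the CD34bright libraries, 131 and 151 in CD41/CD9-negative, 156 and 193 in CD48bright and 77.3 and 80.5 in CD48dim. The log2 fold change between CD34bright and CD48dim was 1.29 (SE 0.30, adjusted p = 0.0795). Prc1, which bundles the microtubules of the central spindle, had CD48dim replicate 2 level with the middle populations. Prc1 measured 145 and 174 CPM in the CD34bright libraries, 99.4 and 145 in CD41/CD9-negative, 86.6 and 143 in CD48bright and 43.9 and 100.5 in CD48dim. Its log2 fold change was 1.14 (SE 0.45, adjusted p = 0.219). The third gene, Ect2, activates RhoA at the division plane and had 20.3 and 86.7 CPM in CD48dim.

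Of the chromosome genes, the condensin subunit Ncaph (chr2:127103809-127133954, minus strand) had close replicates in every population. Ncaph was at 116 and 112 CPM in the CD34bright libraries, 94.7 and 112 in CD41/CD9-negative, 83.1 and 82.0 in CD48bright and 34.9 and 27.1 in CD48dim. Here CD41/CD9-negative replicate 2 lay just under the CD34bright level and CD48dim lay far below. In CD34bright the log2 fold change against CD48dim was 1.88 (SE 0.32, adjusted p = 0.0423). In CD41/CD9-negative it was 1.73 (SE 0.32, adjusted p = 0.02). Top2a, the topoisomerase that untangles sister chromatids, missed the threshold with nearly equal CD48dim libraries. Top2a stood at 1194 and 1368 CPM in the CD34bright libraries, 872 and 1043 in CD41/CD9-negative, 875 and 984 in CD48bright and 375 and 365 in CD48dim. CD34bright exceeded CD48dim by a log2 fold change of 1.79 (SE 0.33, adjusted p = 0.053). The condensin subunit Ncapg had 104 and 80.9 CPM in CD34bright and 22.8 and 42.9 in CD48dim, and shares exon bases with Lcorl, which had 6585 counts against its 8410. Mki67, the Ki-67 protein that coats mitotic chromosomes and is the usual marker of dividing cells, showed no order among populations. Mki67 measured 1980.3 and 2560.0 CPM in the CD34bright libraries, 1789 and 2476 in CD41/CD9-negative, 1450.3 and 2309 in CD48bright and 959 and 2916 in CD48dim. Both the lowest and the highest of the 8 values were CD48dim libraries. The estimate for CD34bright against CD48dim was a log2 fold change of 0.23 (SE 0.53, adjusted p = 0.85).

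Besides Mki67, 6 genes did not have both their highest mean in CD34bright and their lowest mean in CD48dim, and these were singled out after their values were seen. Pttg1 was the only gene with its highest mean in CD48dim. Pttg1 stood at 29.2 and 20.6 CPM in the CD34bright libraries, 15.6 and 18.3 in CD41/CD9-negative, 25.3 and 40.8 in CD48bright and 25.3 and 45.5 in CD48dim. Its log2 fold change was -0.51 (SE 0.47) between CD34bright and CD48dim and -1.06 (SE 0.47) between CD41/CD9-negative and CD48dim, with adjusted p-values of 0.596 and 0.259 by edgeR's quasi-likelihood test. Cenpe, a kinetochore kinesin that aligns chromosomes, was close in CD48bright and CD41/CD9-negative, with both CD34bright libraries above them. Its lowest and highest values were both CD48dim libraries. Cenpe had 273 and 313 CPM in the CD34bright libraries, 209.6 and 253 in CD41/CD9-negative, 234 and 244 in CD48bright and 166 and 327 in CD48dim. Mad2l1 and Kif23, a motor of the central spindle, had their highest mean in CD41/CD9-negative. Mad2l1 was at 90.6 and 86.4 CPM in the CD34bright libraries, 64.1 and 117 in CD41/CD9-negative, 72.6 and 100.1 in CD48bright and 20.7 and 82.9 in CD48dim. Kif23 was at 144 and 132 CPM in the CD34bright libraries, 163 and 129 in CD41/CD9-negative, 81.5 and 94.1 in CD48bright and 28.6 and 97.0 in CD48dim. In both, CD48dim replicate 1 was the lowest library and replicate 2 lay among the others. Ect2 shared that pattern. Aurka and Kif2c, a microtubule depolymerase at centromeres, had CD48dim libraries that overlapped those of CD48bright and CD41/CD9-negative, while their CD34bright pair was above the other 6 libraries. Aurka was at 57.7 and 45.3 CPM in the CD34bright libraries, 23.2 and 28.3 in CD41/CD9-negative, 36.9 and 26.1 in CD48bright and 16.2 and 38.2 in CD48dim. Kif2c was at 54.4 and 46.8 CPM in the CD34bright libraries, 27.5 and 18.6 in CD41/CD9-negative, 30.1 and 17 in CD48bright and 26.6 and 21.7 in CD48dim.

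Much of the spread came from CD48dim, where the 2 libraries disagreed gene by gene although their medians were alike. The absolute log2 difference between replicates had a median over the 40 genes of 0.93 in CD48dim, against 0.30 in CD41/CD9-negative, 0.33 in CD48bright and 0.21 in CD34bright; over all genes tested it was 1.00 in CD48dim. In replicate 2, 8 genes were more than 2-fold higher than in replicate 1, against 19.5% of all genes tested, and 10 were more than 2-fold lower, against 30.8%. Ect2, Mad2l1, Kif23 and Mki67 were among the higher, and Cdc25c (13.9 and 2.75 CPM), Cdc20 and Cdca8 among the lower. Across the 40 genes the log2 difference between the CD48dim replicates had a Spearman correlation of -0.644 with the GC content of the transcript, against -0.36 across all genes tested, and of 0.319 with length (0.278 across all); genes are not independent replicates, and they share the 2 libraries. The correlation with GC content was -0.605 in CD41/CD9-negative, -0.516 in CD48bright and -0.134 in CD34bright. The log2 difference between CD34bright and CD48dim had a correlation with GC content of 0.258 across the 40 genes and -0.005 across all genes tested, and that between CD34bright and CD48bright one of 0.478 and 0.098. The part of base composition, depth or the neutrophil genes in these differences was not tested.

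**Figure D4:**
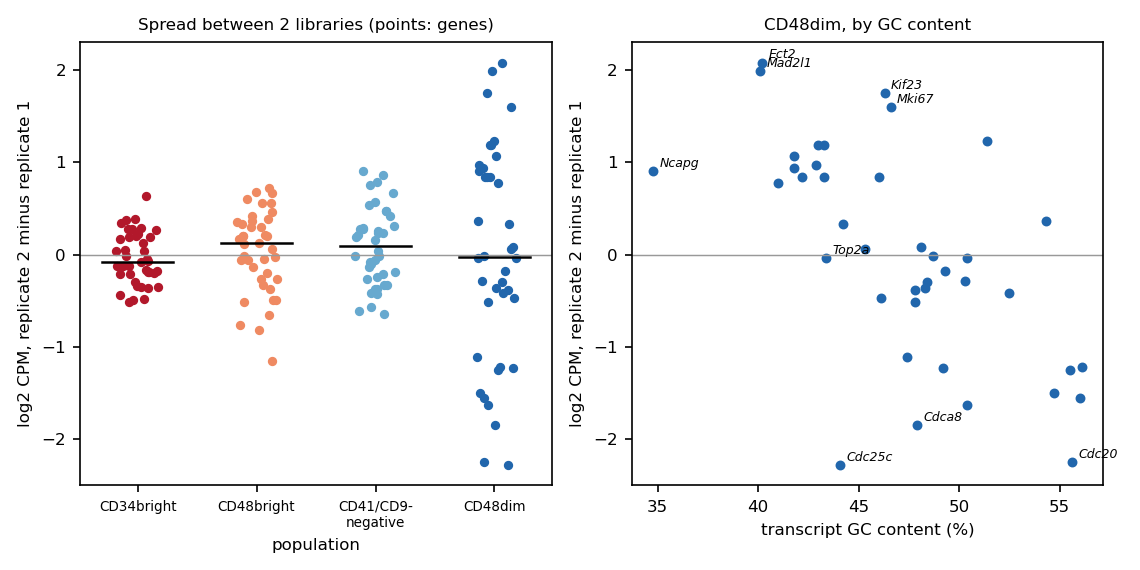
Left, log2 CPM of replicate 2 minus replicate 1 for each of the 40 mitosis genes in each population, with the median as a line; right, the same difference in CD48dim against the GC content of the gene's transcript. The medians lie near 0 in all populations, the CD48dim points spread from -2.28 to 2.08, and genes of low GC content such as Ect2 and Mad2l1 lie at the top.

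Of 98 other genes of mitosis and its control (anaphase-promoting complex, kinetochore, checkpoint, kinesins, condensin and cohesin, entry, cytokinesis, transcription), edgeR called 3 higher in CD34bright than in CD48dim (0.364% of all genes tested), 5 in CD41/CD9-negative (1.98%) and 2 in CD48bright (0.273%), and none lower. The kinetochore gene Nuf2 and the checkpoint ATPase Trip13 were called in all 3 comparisons, with log2 fold changes of 2.38 and 3.16 in CD34bright. Nuf2 had 18.1 and 19.9 CPM in CD48dim and 69.3 to 107 in the other 6 libraries. Cep55, an abscission protein, was called in CD34bright (log2 fold change 2.99, SE 0.46) and in CD41/CD9-negative (2.31, SE 0.45). The transcription factor Foxm1, which activates genes of this class, was called in CD41/CD9-negative (2.01, SE 0.42), as was the centromere loading factor Mis18a (2.95, SE 0.59). The medians of the 98 were 0.68 in CD34bright, 0.52 in CD41/CD9-negative and 0.48 in CD48bright against CD48dim, below those of the 40, and the 14 subunits and partners of the anaphase-promoting complex had 0.36 in CD34bright.

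The 33 genes of DNA replication and nucleotide synthesis had lower median levels in CD48dim than in the other 3 populations. Their median log2 fold changes against CD48dim were 0.80 in CD48bright, 0.77 in CD34bright and 0.61 in CD41/CD9-negative, while their median between CD34bright and CD48bright was -0.04, with 13 of 33 values above 0. The same median was 0.59 in the 40 mitosis genes, with 39 of 40 above 0; the difference between the lists was not tested. EdgeR called 1 replication gene of 33 against CD48dim, near the 1.98% of all genes tested that were higher in CD41/CD9-negative. It was the ribonucleotide reductase subunit Rrm2, higher in CD41/CD9-negative than in CD48dim (log2 fold change 1.84, SE 0.38, adjusted p = 0.0322 by edgeR). Of 5 inhibitors of cyclin-dependent kinases, Cdkn1a, which encodes p21, was called in the same comparison, with 101 and 33.7 CPM in CD41/CD9-negative and 6.46 and 7.70 in CD48dim (log2 fold change 3.26, SE 0.55, adjusted p = 0.0147 by edgeR), and the other 4 were not. The 5 went in both directions against CD48dim. Their log2 fold changes ran from -2.38 to 3.26 in CD41/CD9-negative, -2.88 to 2.72 in CD34bright and -2.00 to 2.20 in CD48bright.

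**Figure D5:**
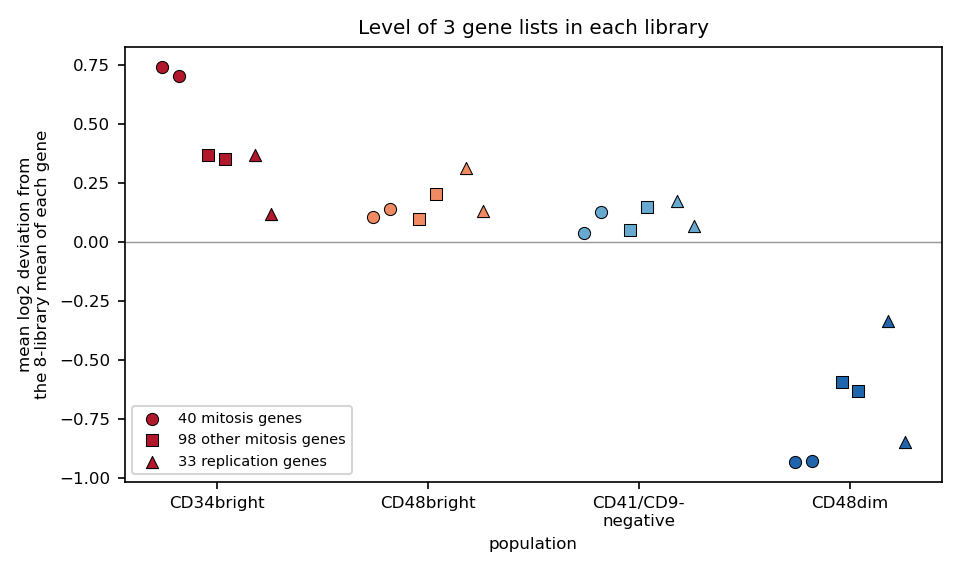
Mean log2 deviation from each gene's 8-library mean, per library, for the 40 mitosis genes (circles), 98 other mitosis genes (squares) and 33 replication genes (triangles), 2 points for each population. The mitosis genes lie at 0.74 and 0.70 in CD34bright and at -0.93 and -0.93 in CD48dim, and the replication genes at 0.37 and 0.12 and at -0.33 and -0.85.

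Per length, on the authors' TPM averaged over the 8 libraries, the level of the 40 genes ran from 14.5 for Cdc25c to 401 for Mki67, with a median of 60.2. Top2a followed at 319 TPM, Ube2c at 316, Birc5 at 210 and Ccna2 at 174, so 3 of the 5 highest genes were not among those called. Over the 8 libraries, the log2 CPM of a gene and the mean of the other genes of the set had a Pearson correlation of 0.978 for Aurkb, 0.977 for Top2a and 0.976 for Cenpa, as a description over libraries that include replicates. The lowest were -0.367 for Pttg1, 0.298 for Mki67 and 0.341 for Cenpe. The median correlation with the mean of the set was 0.887 for its members, 0.626 for the 98 other mitosis genes, 0.668 for the 33 replication genes and 0.047 for all genes tested. For the members this mean includes the gene itself, which raises their value, so it is not a like comparison with the other lists.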

How the data were processed

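RNA of 8 libraries from 4 sorted populations was used, grouped by the sort gates in the labels. Sample titles and design text number the clusters differently, so these numbers were not used. Per the labels' protocols, 5 ng of total RNA went into the Ovation RNA-Seq System V2 for amplification, and libraries carry no strand information, so reads of genes that overlap on opposite strands cannot be told apart. This touches 9 of the 40 genes, and for 3 (Kif20a, Cdc20, Ncapg) the partner had a similar or larger count.

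The deposited expected counts and TPM values per gene are those of RSEM, per the file headers. The submitters' processing notes name STAR 2.7.2a, RSEM 1.3.2, edgeR 3.30.3 and mm10, and no annotation release.

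For the test the estimated counts were rounded, which changed at most 2.2% of genes in a library. Of 24411 genes, 18488 had a count, and filterByExpr of edgeR 4.0.16, applied by population, kept 13177. Levels are CPM of TMM-scaled totals. Deviations use log2 CPM with a prior count of 2. The main test was edgeR's quasi-likelihood F-test in 1 model of 4 population means (4 residual and 5.46 prior degrees of freedom, biological coefficient of variation 49.8%), for any difference and for 6 pairs, two-sided, with Benjamini-Hochberg adjustment over all genes tested and a threshold of 0.05. SEs are approximate: the absolute log2 fold change over the root of its F value. The fit was tested on simulated data. The labels do not say what the replicate numbers mark, but deviations of same-numbered libraries correlated at 0.112 to 0.222 in all 6 pairs of populations, so counts with the number as a block are given beside the results. Alternatives, run in R 4.3.3, were DESeq2 1.42.0, limma-voom (limma 3.58.1) with and without quality weights, DESeq2 size factors, no filter, a replicate block, each pair alone and each library left out, and, added after seeing the data, the authors' TPM and CPM of unscaled totals.

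The 40 genes and all lists were chosen with earlier results of these data known. Values in every library are given for the genes called in each role (up to 4, smallest adjusted p first), or else for the 2 with the smallest p among the 4 populations, and for Ccnb1, Cdk1, Top2a and Mki67. Single values of other genes (Plk1, Nek2, Cdc20, Kif4, Ncapg, Cdc25c and the genes that departed) were chosen after they were seen. Gene coordinates and GC contents are from GENCODE on GRCm38, and promoters from RefSeq on GRCm38.p6.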

Additional observations from a re-analysis of the deposited data

How the results depend on the processing

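The medians of the 40 genes kept their direction under every alternative, except that for CD41/CD9-negative against CD48bright. They ran from 1.21 to 1.72 for CD34bright against CD48dim, 0.83 to 1.10 for CD48bright against CD48dim, 0.87 to 1.05 for CD41/CD9-negative against CD48dim, 0.41 to 0.65 for CD34bright against CD48bright and -0.69 to -0.41 for CD41/CD9-negative against CD34bright. The median for CD41/CD9-negative against CD48bright was 0.02 and lay between -0.09 and 0.09. Many medians moved by more than the median level differed between replicates (SD 0.01 to 0.04). On the authors' TPM they were 1.21, 0.83, 0.87, 0.41, -0.41 and 0.0911 in the order above, and on CPM of unscaled totals 1.47, 1.05, 0.96, 0.46 and -0.56 for the first 5. For the first 3, the comparisons with CD48dim, limma-voom gave 1.64, 1.10 and 1.03, and quality weights 1.71, 1.07 and 1.05. For CD34bright against CD48dim DESeq2 gave 1.54, DESeq2 size factors 1.54, no filter 1.58 and the pair alone 1.60, which gave 0.96 for CD41/CD9-negative against CD48dim. Leaving out 1 library gave 1.57 to 1.72, 0.91 to 1.07, 0.89 to 1.03, 0.54 to 0.65, -0.69 to -0.64 and -0.0907 to 0.0201. On the authors' TPM the median of all genes tested moved by -0.23 for CD34bright against CD48dim, by -0.11 for CD48bright against CD48dim, by -0.14 for CD34bright against CD48bright and by 0.21 for CD41/CD9-negative against CD34bright. The sign of Cenpe between CD34bright and CD48dim, and those of Mad2l1, Anln and Ncapg between CD34bright and CD48bright, turned there.

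The number of genes called moved with the setting, as did the share of all genes tested, and the cause was not tested. DESeq2 called 24 genes for any difference, 29 for CD34bright, 17 for CD41/CD9-negative and 14 for CD48bright against CD48dim, and 1 for CD41/CD9-negative against CD34bright (13%, 9.77%, 11.7%, 5.76% and 4.74% of all genes tested). Without a filter on low counts the first 4 of these counts were 22, 28, 13 and 11 (8.69%, 5.51%, 6.44% and 3.18%). Limma-voom called 2 for any difference (1.07% of all genes tested). With quality weights it called 0 for any difference (0.569%), 0 for CD41/CD9-negative against CD48dim (1.43%) and 7 for CD41/CD9-negative against CD34bright (7.03%). With only the pair compared there were 0 calls for CD34bright (0% of all genes tested) and 0 for CD41/CD9-negative (1.02%) against CD48dim. There were 7 for CD41/CD9-negative against CD34bright (8.7%). Leaving out 1 library at a time, where the lone library left is assumed to vary like the others, gave 0 to 26 calls for any difference, 0 to 30 for CD34bright, 0 to 20 for CD41/CD9-negative and 0 to 21 for CD48bright against CD48dim, and 0 to 5 for CD41/CD9-negative against CD34bright. The 10 log2 fold changes called kept their sign in all of these. They stayed below the threshold in DESeq2 and without either CD48dim library, and 9 did with DESeq2 size factors, 6 in limma-voom, 3 with quality weights and none with only the pair compared.

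With a replicate block the counts were 20 for any difference, and 26 for CD34bright, 10 for CD41/CD9-negative and 5 for CD48bright against CD48dim (5.8%, 5.18%, 7.32% and 1.35% of all genes tested), and the medians 1.59 for CD34bright and 0.98 for CD41/CD9-negative against CD48dim. The block changed no other count of calls.

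With 2 libraries a group and between 7237587 and 20632005 counts, the smallest log2 fold change called among the 40 genes was 1.41 (Ccnb1, CD41/CD9-negative against CD48dim). Larger ones were not called, up to 2.87 (Nek2, CD34bright against CD48dim).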
